A study of Homo sapiens with 2 samples.

Results

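Integrins, laminins and collagens are the receptors and structural proteins through which a cell holds on to its matrix. Each integrin is a transmembrane pair of an alpha and a beta subunit, and the pair fixes which ligand is bound. Laminins are trimers of an alpha, a beta and a gamma chain that build the basement membrane, and collagens are trimers of alpha chains that form fibrils, networks or transmembrane proteins. In the colon, epithelial cells rest on a basement membrane of laminin and type IV collagen, while most fibrillar collagen comes from fibroblasts of the stroma.

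The genes were chosen by name alone, as all genes with an ITGA or ITGB symbol, a LAMA, LAMB or LAMC symbol with a number, or a COL symbol of chain form. This gave 86 of the 19775 genes with a probe set of 1 gene symbol on the array. They comprised 25 integrin subunits (18 alpha and 7 beta), 10 laminin chains, 43 collagen chains and 8 other ITGA or ITGB names that are not integrin subunits. The genes were read in RKO, an established human colon cancer cell line, in which the study asked which transcripts differ when BCLAF1-L, the L form of the nuclear protein BCLAF1, is knocked down. One array held RNA from RKO cells infected with a retrovirus for the hairpin sh-BCLAF1-L#1. The other held RNA from RKO cells infected with a retrovirus for sh-Luci, a control hairpin. Both cultures received fresh medium 24 h after infection and puromycin at 2 ug/ml for 72 to 96 h, and RNA was taken from the selected cells. The labels do not say whether the selected cells were pools or clones. A single hairpin against BCLAF1 was used, so the effect of lower BCLAF1 and other effects of that hairpin cannot be told apart.

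Each group had 1 array, so no value below has a replicate, no p-value was computed, and a difference between hairpins and a difference between arrays cannot be told apart. BCLAF1 itself read 945 in sh-BCLAF1-L cells, against 2505 in sh-Luci cells, on its brightest probe set, and was lower on all 6 of its probe sets. Deposited intensities ran from 1 to 16650 on the sh-BCLAF1-L array and from 1 to 17349 on the sh-Luci array, with medians of 84.5 and 82.7. The 18 probe sets of the biotin spike-ins were all higher on the sh-BCLAF1-L array, by 0.05 to 0.33 on the log2 scale with a median of 0.20, whereas the 27 probe sets of the poly-A controls had a median of -0.035. Their part in the results below was not tested. Of the 9 epithelial and RKO markers 6 were detected, 4 of them with a difference above 0. EPCAM read 472 in sh-BCLAF1-L cells and 477 in sh-Luci cells and the keratin KRT18 read 674 and 979, whereas E-cadherin (CDH1, 35.6 and 24.6) and KRT20 (14.6 and 15.6) lay below the detection threshold of 63.7 described next. VIM read 453 and 378, KRT8 97.6 and 96.0, CDX2 77.3 and 67.4 and VIL1 67.5 and 61.1, and KRT19 was not detected.

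A gene was called detected when the mean of its brightest probe set over both arrays was at or above the 40th percentile over the whole array, an intensity of 63.7. By this rule 57 of the 86 genes were detected, or 66.3%, against 73.4% of all genes. All 10 laminin chains were detected, as were 21 of 25 integrin subunits, 23 of 43 collagen chains and 3 of the 8 other names. The threshold is permissive. It also passed 2 of 4 blood cell markers that are not among the 86 genes, including the T cell gene CD3E (111 in sh-BCLAF1-L cells, 135 in sh-Luci cells), 3 of 6 fibroblast markers and 2 of 5 endothelial markers. The summed intensities of these lists were 299, 489 and 395 in sh-BCLAF1-L cells, against 302, 464 and 383 in sh-Luci cells, while the leukocyte gene PTPRC (43.3 and 41.2) and the endothelial cadherin CDH5 (16.6 and 19.6) were not detected. In bulk RNA, fewer expressing cells and less RNA per cell cannot be told apart.

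Some of the detected genes of all 3 families were close to the threshold or rested on 1 probe set. The counts below were not made for all detected genes of the array. Of the 57 detected genes, 17 lay within 1.5-fold of the threshold, below an intensity of 96.0. Of 44 with several probe sets, 23 passed on the brightest one alone and 11 passed on every one. A set of 18 genes, with 9 of the 21 detected integrin subunits, 4 of the 10 laminin chains and 3 of the 23 collagen chains, was detected by 3 stricter rules as well, namely the median over probe sets, the brightest probe set without those named _s_at or _x_at, and a threshold at the 60th percentile. The integrin subunits were ITGB1, ITGB5, ITGAV, ITGAE, ITGA2, ITGA5, ITGA6, ITGA7 and ITGAD. The laminin chains were LAMA1, LAMB1, LAMB3 and LAMC1, the collagen chains COL27A1, COL6A1 and COL11A2, and the other names ITGB1BP1 and ITGB1-DT. Of these, ITGAV, ITGAE, ITGA5, ITGAD, LAMB3 and ITGB1-DT each have a single probe set, not of the _s_at or _x_at kind. For them the median over probe sets and the omission reread the same value, so only the 60th percentile could change detection. LAMA5, LAMB2, ITGA3, COL9A3 and ITGB3BP could not pass all 3, because each has a single probe set of 1 gene symbol, of the _s_at kind. Nor could COL1A1, COL10A1, COL13A1 and COL18A1, whose probe sets are all of the _s_at or _x_at kind. Just above the threshold lay COL12A1 (64.9 in sh-BCLAF1-L cells, 63.0 in sh-Luci cells) and COL13A1 (61.7 and 68.8), and just below it ITGB8 (60.5 and 63.8) and COL4A2 (61.4 and 58.1). Intensities of different probe sets depend on their probes, so the order of the genes by intensity is not an order of transcript levels.

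**Figure D1:**
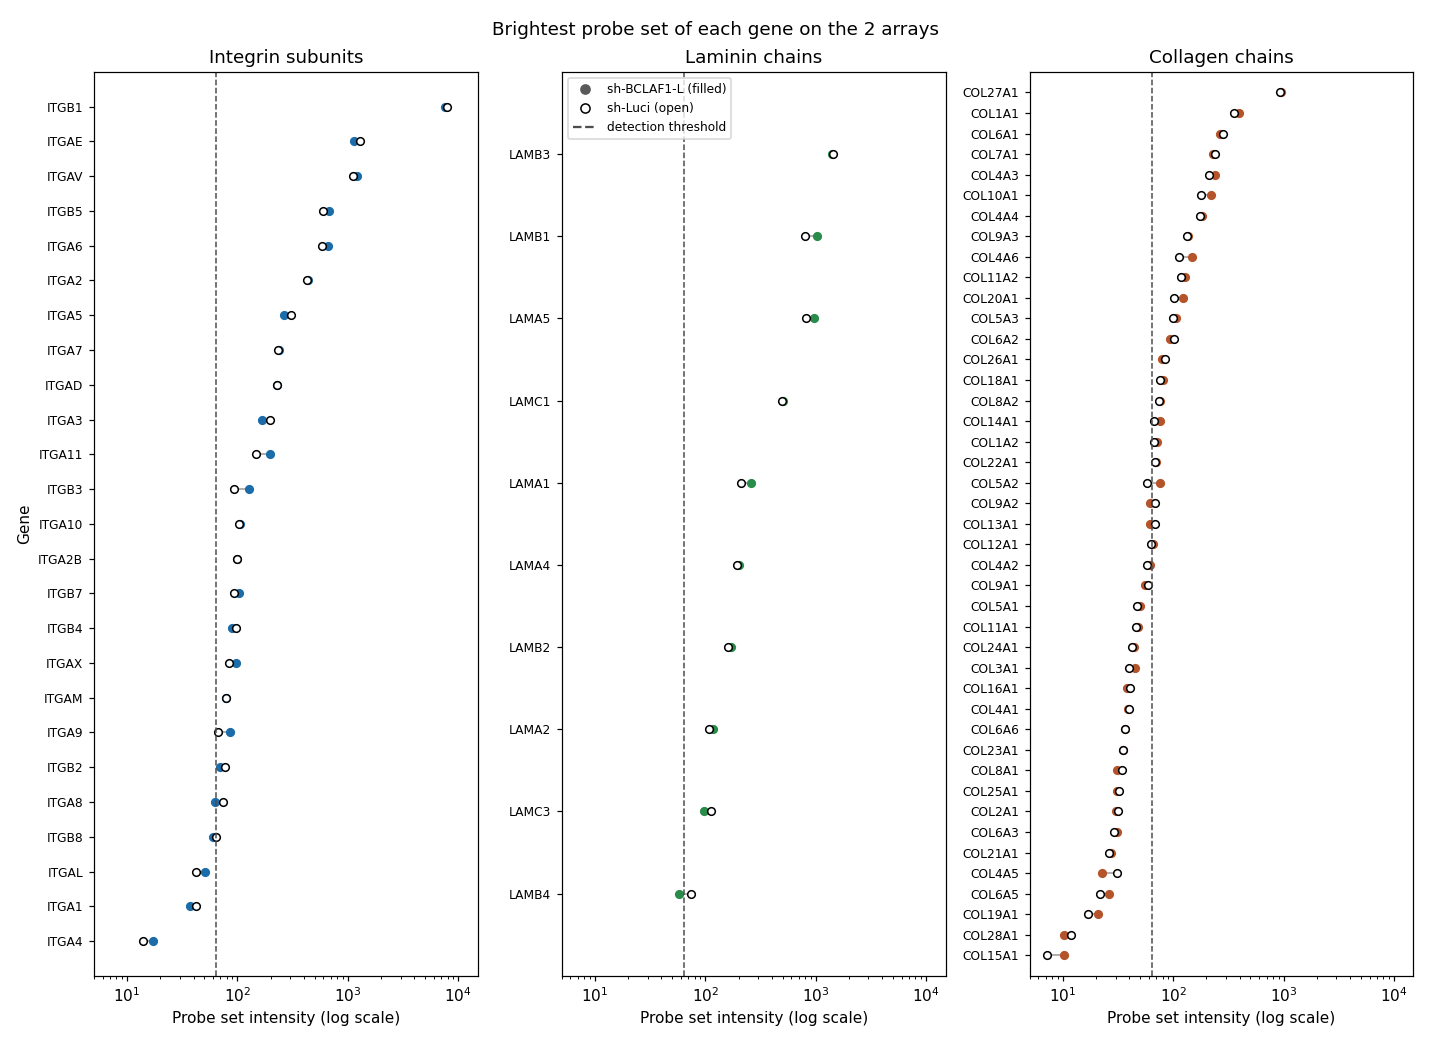
Intensity of the brightest probe set of each integrin subunit, laminin chain and collagen chain (log scale) on the sh-BCLAF1-L array (filled) and the sh-Luci array (open), 1 array each, with genes from the highest to the lowest mean. The dashed line is the detection threshold of 63.7, which all 10 laminin chains and 23 of 43 collagen chains reached, and the filled and open points of a gene lie close together.

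No detected gene of the 57 differed by 1.5-fold between sh-BCLAF1-L and sh-Luci cells in either direction, where 0.634% of all detected genes did (92 of 14507), 0.434% higher and 0.2% lower. At that share fewer than 1 gene in 57 would be past 1.5-fold, so the count of 0 lies near the background. Differences are given on the log2 scale as sh-BCLAF1-L minus sh-Luci, on log2(intensity + 1). They ran from -0.34 to 0.44 over the 57 genes, with a median of 0.042, against 0.019 over all detected genes. Of the 57, 39 differed above 0 (68.4%), against 55.0% of all detected genes. With each gene taken as the median of its probe sets, the count was 32 of 57 (56.1%), against 54.8% of the same detected genes, so the share above 0 then lay near that of all genes. Past a difference of 0.32 in size, 6 of the 57 were higher and 1 lower (12.3%), where 4.16% of all detected genes were higher and 2.21% lower (6.36%). With the median over probe sets 1 of the 57, LAMB1, was past 0.32. Of the 14507 detected genes, 366 were higher and 230 lower by that measure, so the members were not past it more often. No filter, the 60th percentile and omission of _s_at and _x_at probe sets left the LAMB1 value at 0.36. They keep its brightest probe set, so they could not change it. With 32 in place of 1 added to each intensity, LAMB1 differed by 0.35. After subtraction of the median difference or of a loess curve, LAMB1 differed by 0.33 and 0.34. Of the 7 genes, COL5A2 (76.7 in sh-BCLAF1-L cells, 57.9 in sh-Luci cells) and LAMB4 (58.3 and 74.1), the only one lower, had an intensity below the threshold of 63.7 on the array where they were low, so each was detected through its higher array. The SD between probe sets within a gene was 0.16 over 6752 genes. This SD does not cover the spread between cultures.

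The integrin beta subunits decide the classes of receptor a cell can make. ITGB1, the common partner of the collagen, laminin and fibronectin receptors, read 7626 in sh-BCLAF1-L cells, against 7862 in sh-Luci cells, a difference of -0.04. Its next 3 probe sets differed by -0.05, -0.04 and 0.05, so the 4 with the highest intensity gave nearly the same value on both arrays. A further detected ITGB1 probe set, of the _x_at kind that can match several transcripts, read 264.5 in sh-BCLAF1-L cells and 171 in sh-Luci cells. Its difference of 0.63 was the only one past 1.5-fold among the 92 detected probe sets of these genes. ITGB5, which pairs with ITGAV to bind vitronectin, read 681 in sh-BCLAF1-L cells and 601 in sh-Luci cells (0.18), while its 3 others lay between -0.09 and -0.02.

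The remaining beta subunits had lower intensities on their brightest probe sets. Of those detected, ITGB4 and ITGB2 lay within 1.5-fold of the threshold, and ITGB3 and ITGB7 above that range. ITGB3, the beta subunit of the platelet fibrinogen receptor and of a vitronectin receptor, read 128 in sh-BCLAF1-L cells and 94.0 in sh-Luci cells, a difference of 0.44 and the highest of the 57. The other 2 detected ones gave 0.0020 and 0.17, so the brightest probe set stood apart within the gene. ITGB4, the hemidesmosome subunit that pairs with ITGA6, read 89.6 and 97.3 (-0.12), with 0.09 on its other detected probe set. ITGB7, a lymphocyte homing subunit, read 103 and 93.9, and the leukocyte subunit ITGB2 read 68.8 and 76.5, with differences of 0.13 and -0.15. ITGB8, an ITGAV partner that activates latent TGF-beta, was not detected.

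Among alpha subunits that bind laminin, ITGA6 read 660 in sh-BCLAF1-L cells and 579 in sh-Luci cells, and its 2 probe sets differed by 0.19 and 0.24. ITGA3 went the other way on its single probe set, with 168 in sh-BCLAF1-L cells and 196 in sh-Luci cells (-0.23). ITGA7, the laminin receptor known from muscle, read 236 and 234 (0.010). The laminin receptor subunits thus differed in both directions, each by less than 0.32.

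Of the 4 alpha subunits that bind collagen, 3 were detected. ITGA2, the epithelial and platelet collagen receptor, read 439 in sh-BCLAF1-L cells and 430 in sh-Luci cells (0.03), with 0.17 on its second probe set. ITGA11, known from fibroblasts, read 196 and 148, a difference of 0.40. It rested on 1 of 3 ITGA11 probe sets, and the median over the 3 was 0.057. ITGA10, of cartilage, read 105 and 104 (0.02), and ITGA1, the last of these receptors, read 37.2 and 42.5 and was not detected.

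Several alpha subunits bind the RGD motif of fibronectin, vitronectin and related ligands. ITGAV read 1221 in sh-BCLAF1-L cells and 1104 in sh-Luci cells (0.14), and ITGA5, the classic fibronectin receptor subunit, read 266 and 305 (-0.19), each on a single probe set. ITGA8, a nephronectin receptor, read 62.8 and 73.3 (-0.22), which places sh-BCLAF1-L cells just below and sh-Luci cells just above the threshold. ITGA2B, the platelet partner of ITGB3, read 98.1 and 99.5 (-0.02). Of a pair that binds other motifs, ITGA9, whose ligands include tenascin-C, read 85.4 and 67.0 (0.35) on 1 of 4 probe sets, and the median over the 4 was -0.0092. The other, ITGA4, which pairs with ITGB1 or ITGB7 on leukocytes, read 17.3 and 13.99 and was not detected.

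Alpha subunits known from leukocytes were detected in part. ITGAE, which with ITGB7 binds E-cadherin, read 1147 in sh-BCLAF1-L cells and 1275 in sh-Luci cells (-0.15) on its single probe set. ITGAD read 230 and 229 (0.0054), ITGAX 96.1 and 83.7 (0.20) and ITGAM 79.1 and 78.9 (0.0032), and ITGAL was not detected (51.3 and 41.7). Over all 21 detected integrin subunits the median difference was 0.010 (quartiles -0.12 and 0.18), with 13 above and 8 below 0, and the median of all detected genes was 0.019.

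The laminin chains had an SD of 0.22, against 0.20 for integrin subunits, 0.16 for collagen chains and 0.17 for all detected genes. The laminin value includes LAMB4 at -0.34, which was detected through its higher array. LAMB1, the beta chain of most basement membranes, read 1034 in sh-BCLAF1-L cells and 807 in sh-Luci cells. Its difference of 0.36 stood beside 0.31 on its second probe set. Of the 7 genes past 0.32 in size, only LAMB1 and ITGB3 had further detected probe sets. The alpha chains LAMA5, of adult epithelial basement membranes, and LAMA1, of embryonic ones, differed by 0.24 (958 and 810) and 0.30 (259 and 211). LAMA5 had a single probe set that names it alone. A further detected probe set, left out because it names both LAMA5 and LAMA5-AS1, read 115 and 127, a difference of -0.14. The second probe set of LAMA1, below the threshold, differed by 0.23. LAMC1, the gamma chain that completes trimers with LAMB1, read 507 and 497 on one probe set (0.03) and differed by 0.52 on the other, so its 2 probe sets disagreed.

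The other laminin chains were nearer 0 or lower. LAMB3, a beta chain of the epithelial laminin that anchors hemidesmosomes, read 1399 in sh-BCLAF1-L cells and 1418 in sh-Luci cells (-0.02). LAMB2, a beta chain of kidney and neuromuscular basement membranes, read 169 and 159 (0.09). The alpha chains LAMA4, of vessels, and LAMA2, of muscle and nerve, read 202 and 195 (0.06) and 118 and 107 (0.13). LAMA4 was detected on 1 of 5 probe sets and LAMA2 on 2 of 4. Their median intensities over probe sets were 29.6 and 59.8, below the threshold. LAMC3 read 97.5 and 112 (-0.20), and LAMB4 read 58.3, below the threshold, and 74.1, the lowest difference of the 57 at -0.34. Neither held on the median over probe sets, where they differed by -0.0020 and 0.08. Over the 10 chains the median difference was 0.074 (quartiles -0.0071 and 0.21), with 7 above and 3 below 0. With the median over probe sets it was 0.24, over the 7 chains detected in that setting.

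**Figure D2:**
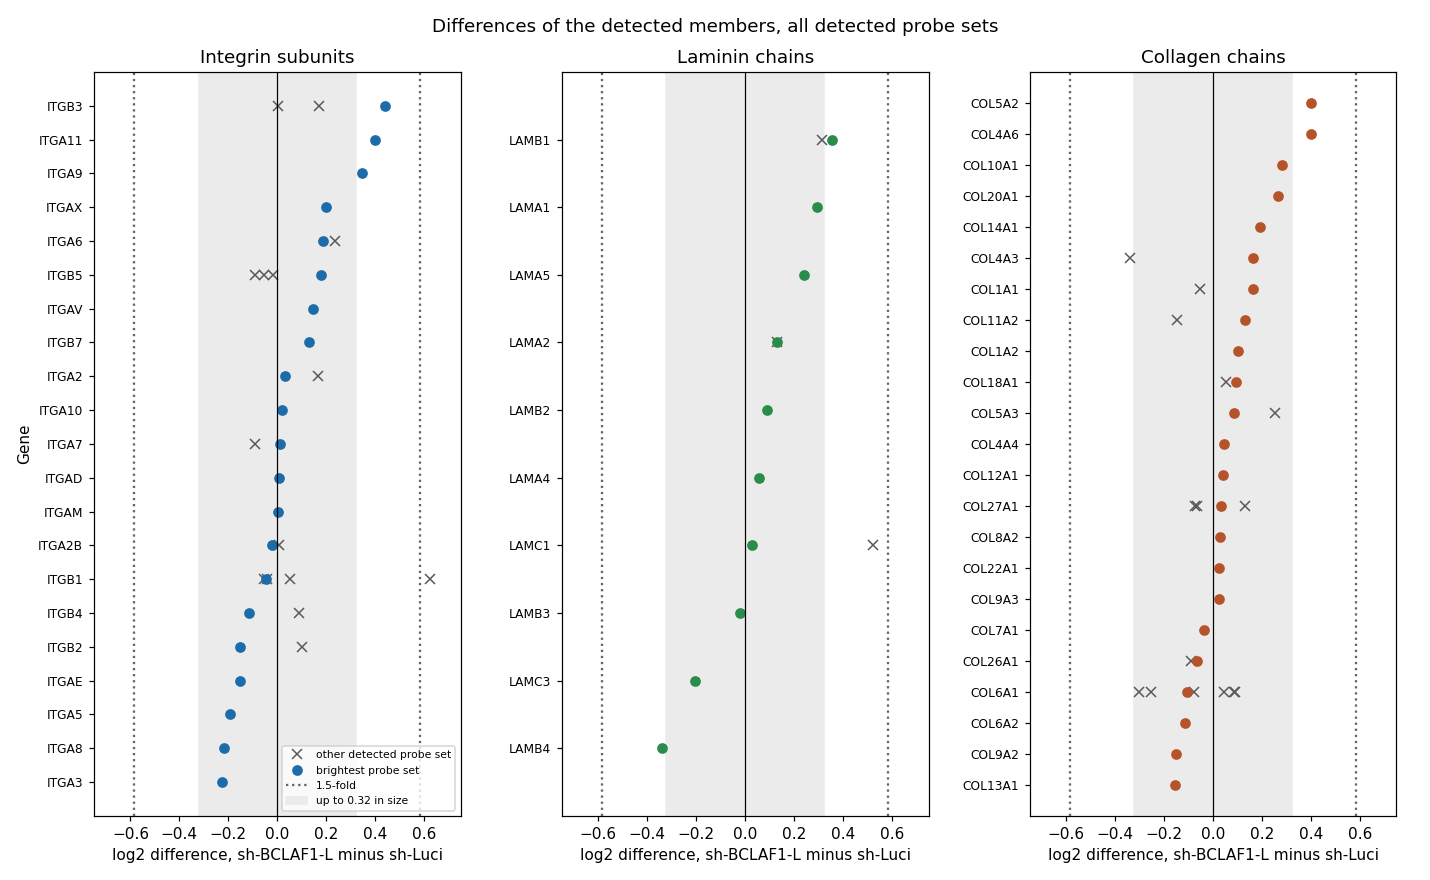
log2 difference (sh-BCLAF1-L minus sh-Luci, 1 array each) of the brightest probe set (dots) and of the other detected probe sets (crosses) of each detected integrin subunit, laminin chain and collagen chain, sorted within a family. The grey band covers differences up to 0.32 in size and the dotted lines are 1.5-fold. No dot passes 1.5-fold, 7 leave the band, and 1 cross, of ITGB1, lies past 1.5-fold at 0.63.

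The probe sets of a gene often disagreed in sign, as they do across the array. Of the 21 genes with at least 2 detected probe sets, 10 had them all on one side of 0 (47.6%), against 45.0% of 6752 such genes in all. LAMB1, ITGA6, ITGA2, LAMA2, COL18A1, COL5A3 and COL26A1 were among those with one sign. For the other 36 genes this check was not possible, since 1 probe set was detected. The share of genes past 0.32 in size also moved with intensity. Of the 40 genes below an intensity of 269.7, the median of all detected genes, 15% were past it, against 8.78% of all detected genes in that range. Above it, 1 of 17 was (5.88%), namely LAMB1, against 3.94% of all detected genes.

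Fibrillar collagens were measured by 11 chains, of which 6 were detected, all with differences above 0, of which COL5A2 alone passed 0.32. Of all detected genes 55.0% were above 0. The common sign did not hold on the median over probe sets. There COL27A1 (-0.065), COL1A1 (-0.052) and COL11A2 (-0.0087) lay below 0, and COL1A2 (0.07), COL5A2 (0.11) and COL5A3 (0.17) above. COL27A1, a fibrillar chain known from cartilage, read 940 in sh-BCLAF1-L cells and 919 in sh-Luci cells (0.03), with -0.07 to 0.13 on the other detected ones. COL1A1, which with COL1A2 forms type I collagen, read 397 and 355 (0.16), with -0.05 on its second detected probe set. COL1A2 was near the threshold at 71.9 and 66.9 (0.10). Both chains of type I were therefore detected, but COL1A1 on 2 of 5 probe sets and COL1A2 on 1 of 3. Neither chain was detected by the median over probe sets. In types V and XI only some chains were detected. COL5A2 read 76.7 and 57.9, a difference of 0.40 across the threshold, and COL5A3 read 106 and 99.5 (0.09). COL5A1 (50.1 and 47.2) was not detected. COL11A2 read 129 and 117 (0.13), with -0.15 on its other probe set, and COL11A1 was not detected. COL3A1, the fibrillar collagen of soft tissue stroma, read 45.2 and 39.8 and was not detected either, as were COL2A1 and COL24A1.

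Type IV collagen chains form the network of the basement membrane, and their genes lie as head-to-head pairs that are transcribed in opposite directions from a shared stretch. In the RefSeq promoter table of GRCh38.p14, which held 59 of the 86 genes, the start sites of COL4A1 and COL4A2 were 127 bases apart, those of COL4A3 and COL4A4 419 bases, and those of COL4A5 and the nearer of 2 COL4A6 starts 380 bases. The shared stretches are shown on the plus strand, because the array reads both genes of each pair. For COL4A1 and COL4A2 all 126 bases between the start sites are given, and for the other pairs the 250 bases before the start of COL4A3 and of COL4A5. Capitals mark GGGCGG, the GC box bound by Sp1, and CCAAT, the CCAAT box, each searched on both strands. The minus-strand forms are CCGCCC and ATTGG.
COL4A1 and COL4A2, chr13:110307158-110307283: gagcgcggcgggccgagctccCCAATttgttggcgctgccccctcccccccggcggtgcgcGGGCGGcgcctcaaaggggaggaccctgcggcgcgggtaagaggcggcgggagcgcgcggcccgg
COL4A4 and COL4A3, chr2:227164374-227164623: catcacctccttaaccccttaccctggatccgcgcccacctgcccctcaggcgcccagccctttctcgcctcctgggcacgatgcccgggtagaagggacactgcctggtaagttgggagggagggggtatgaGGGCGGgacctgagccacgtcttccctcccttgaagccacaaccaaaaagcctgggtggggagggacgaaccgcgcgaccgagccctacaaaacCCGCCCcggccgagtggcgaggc
COL4A6 and COL4A5, chrX:108439588-108439837: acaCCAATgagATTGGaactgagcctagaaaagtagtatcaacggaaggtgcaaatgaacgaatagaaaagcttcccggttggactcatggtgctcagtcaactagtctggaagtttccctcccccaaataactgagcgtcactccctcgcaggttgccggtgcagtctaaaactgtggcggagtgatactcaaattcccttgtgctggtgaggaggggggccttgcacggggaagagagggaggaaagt

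The printed stretches held 1 GC box and 1 CCAAT box for COL4A1 and COL4A2, 2 GC boxes and no CCAAT box for COL4A3 and COL4A4, and no GC box and 2 CCAAT boxes for COL4A5 and COL4A6. Of 35116 promoters in the table, 34.6% held a GC box and 21.1% a CCAAT box in the last 126 bases before the start, and 42.6% and 32.01% in the last 250 bases. GC content was 80.2%, 66.4% and 51.2% in the order shown, against 59.1% for all promoters over 126 bases and 57.2% over 250 bases. The matches are a description of the letters in these stretches.

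The pairs differed in detection. Neither gene of the first pair was detected, with COL4A1 at 38.9 in sh-BCLAF1-L cells and 39.6 in sh-Luci cells and COL4A2 at 61.4 and 58.1. Both genes of the second pair, the chains of the glomerular network, were detected. COL4A3 read 238 and 212 (0.16), but its second detected probe set differed by -0.34 and its other 5 lay below the threshold. COL4A4 read 181 and 175 (0.05) on 1 of 3 probe sets. In the last pair COL4A6 was detected at 148 and 112 (0.40) on 1 of 3 probe sets, with a median over the 3 of -0.015, and COL4A5 was not detected at 22.5 and 30.8. The 3 detected type IV chains thus each had probe sets below the threshold beside the detected one.

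Of the beaded filament collagen, type VI, which is built from 3 different chains, COL6A1 and COL6A2 were detected. COL6A1 read 263 in sh-BCLAF1-L cells and 283 in sh-Luci cells (-0.11), and its 7 detected probe sets spread from -0.30 to 0.09. COL6A2 read 94.1 and 102 (-0.11), and COL6A3, the large chain of the trimer, read 31.2 and 28.9 and was not detected, nor were COL6A5 and COL6A6. COL7A1, the anchoring fibril that ties the epithelial basement membrane to the stroma, read 231 and 237 (-0.04). It rested on 1 of 2 COL7A1 probe sets, and the median over the 2 was 0.13. On the brightest probe sets of these chains the values of both arrays lay close together, and the trimer of type VI was detected only in part.

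The short-chain, fibril-associated and transmembrane collagens were mostly near the threshold. COL10A1, the collagen of hypertrophic cartilage, read 218 in sh-BCLAF1-L cells and 179 in sh-Luci cells (0.28) on 1 of 2 probe sets, and COL8A2 read 76.3 and 74.8 (0.03). Among fibril-associated collagens 6 of 10 were detected. COL9A3 read 136 and 134 (0.02), COL9A2 62.0 and 68.9 (-0.15), and COL20A1 122 and 102 (0.27), while COL12A1, COL14A1 and COL22A1 differed by 0.04, 0.19 and 0.03. COL18A1, the precursor of endostatin, read 80.5 and 75.3 and differed by 0.09 and 0.05 on its 2 probe sets. COL26A1 differed by -0.07 and the transmembrane COL13A1 by -0.15. Over all 23 detected collagen chains the median difference was 0.046 (quartiles -0.0055 and 0.16), with 17 above and 6 below 0.

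The 29 genes below the threshold had mean intensities from 8.58 to 62.1. Beside those already given they were the collagen chains COL8A1, COL9A1, COL15A1, COL16A1, COL19A1, COL21A1, COL23A1, COL25A1 and COL28A1, together with ITGB1BP2, a muscle protein that binds ITGB1, the integrin-like ITGBL1, and the antisense transcripts ITGA9-AS1, ITGB2-AS1 and ITGB8-AS1. Their differences between the arrays are not described, since background makes up an unknown part of such intensities. The 3 detected genes that carry an integrin name without being subunits were ITGB1BP1, ITGB3BP and ITGB1-DT. ITGB1BP1, which binds the ITGB1 tail and restrains integrin activation, read 2118 in sh-BCLAF1-L cells and 2169 in sh-Luci cells (-0.03). ITGB3BP, a centromere protein, read 1075 and 925 (0.22), and ITGB1-DT, the transcript divergent from ITGB1, read 596 and 516 (0.21), each on a single probe set.

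Genes that work with these proteins were described by 5 further lists. Of the integrin activators and adhesion plaque genes, 19 of 23 were detected, none past 1.5-fold. Their median difference was -0.065, with 6 above and 13 below 0, against a median of 0.019 over all detected genes. The 4 brightest were ACTN1, an actin crosslinker (3022 in sh-BCLAF1-L cells, 3287 in sh-Luci cells), VCL or vinculin (2051 and 1977), PTK2 or focal adhesion kinase (1830 and 1866) and PXN or paxillin (1759 and 1840). Outside the rule for named genes and chosen after its value was seen, ILK, the integrin-linked pseudokinase, read 455 and 631, the lowest difference of this list at -0.47 on 1 probe set. The kindlin FERMT1 was detected (565 and 649) and the kindlins FERMT2 and FERMT3 were not, and these too were named after their values were seen.

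In the remaining lists the medians lay between -0.043 and 0.023. Without _s_at and _x_at probe sets they were -0.11 for the other laminin and collagen receptors and -0.12 for the other matrix ligands, beyond the -0.047 of the adhesion plaque list in that setting. All 8 hemidesmosome and tetraspanin genes were detected, with a median of 0.0042 and none past 1.5-fold. Their 4 brightest were the tetraspanins CD63 (5554 in sh-BCLAF1-L cells, 5652 in sh-Luci cells), CD9 (2821 and 2755), CD81 (1965 and 2271) and the integrin-bound CD151 (739 and 919). Of 10 other laminin and collagen receptors, all detected with a median of -0.0055, 1 was past 1.5-fold. This was GP6, the platelet collagen receptor, at 121 and 70.0 (0.78) on its only detected probe set, so its sh-Luci value lay near the threshold. The brightest of that list were the hyaluronan receptor CD44 (2312 and 2097), the syndecans SDC1 (1091 and 1060) and SDC4 (856 and 813), and MRC2, an endocytic collagen receptor (239 and 269).

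Among other matrix ligands and basement membrane proteins, 14 of 23 were detected, none past 1.5-fold, with a median of 0.023. The brightest were the integrin ligand CCN1 (1868 in sh-BCLAF1-L cells, 2024 in sh-Luci cells), the basement membrane proteoglycan AGRN (1205 and 1160), ICAM1, a ligand of leukocyte integrins (266 and 283), and tenascin-C, TNC (227 and 170). TNC differed by 0.42, the highest of this list. Outside the rule and named after their values were seen, CCN2, a matricellular integrin ligand, read 96.8 and 145, the lowest difference at -0.57, and periostin, POSTN, read 174 and 221 (-0.34). The nidogens NID1 and NID2, which link laminin to type IV collagen, were not detected. They were named after their values were seen. Of the collagen processing enzymes and chaperones, 24 of 28 were detected, none past 1.5-fold, with a median of -0.043. They included PPIB, a prolyl isomerase (5082 and 5288), P4HB, a subunit of collagen prolyl hydroxylase (1841 and 2051), CRTAP, a partner of prolyl 3-hydroxylase (1940 and 1592), and TMEM38B, an ion channel of the endoplasmic reticulum (1296 and 1393). Over the 24 genes the differences lay between -0.30 and 0.29.

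**Figure D3:**
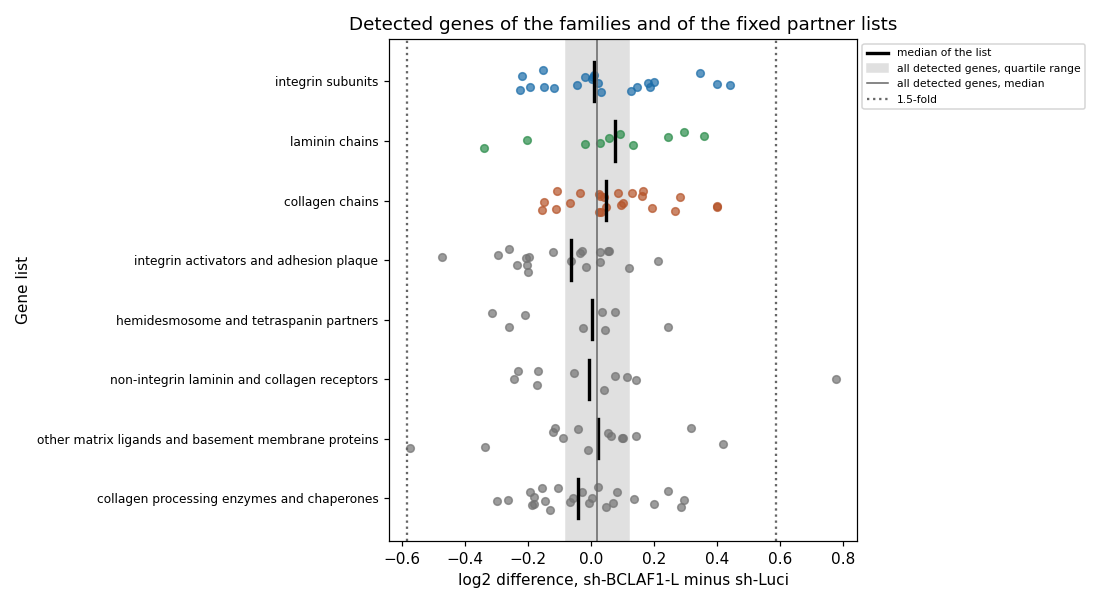
log2 difference (sh-BCLAF1-L minus sh-Luci, 1 array each) of the detected genes of the 3 families and of the 5 partner lists, with 1 dot per gene and a black bar at the median of each list. The grey band and line are the quartile range and the median (0.019) of all 14507 detected genes, and the dotted lines are 1.5-fold. GP6 at 0.78 is the only gene shown past 1.5-fold.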

How the data were processed

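The deposited table gives a linear intensity for each probe set on each array, made with RMA per the submitters' processing notes. RMA by design corrects background, equalises intensity distributions between arrays and summarises probes, so a change common to most genes may have been lost. The deposited distributions were not identical, with medians of 84.5 on the sh-BCLAF1-L array and 82.7 on the sh-Luci array. How far they were equalised is therefore not known. The sources used here name no program, version or final scaling. Of 54675 probe sets, 41097 carried 1 gene symbol, 1801 several and 11777 none, and those without a single symbol were left out. Symbols were updated by Entrez identifier in a RefSeq table of GRCh38.p14, with matches for 41043 of those 41097. Values were transformed as log2(intensity + 1) with pandas 2.3.3 and numpy 2.4.6. A gene was represented by its brightest probe set (highest mean of the 2 arrays), with detection at the 40th percentile. A fold is 2 to the power of the log2 difference. Recovery of known changes was tested on simulated data. Precision is limited by the number of arrays.

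The genes and lists were chosen with earlier results of these data known. Named were every detected integrin subunit, laminin chain and collagen chain, those below detection as names with a range, and, of each partner list, genes at or past 1.5-fold and the 4 brightest. The symbol ITGB1BP1 was also in the adhesion plaque list and is counted only among the 86 genes. Alternatives were the median over probe sets, omission of _s_at and _x_at probe sets, no filter, the 60th percentile, a pseudocount of 32, subtraction of the median difference or of a loess curve (span 0.3, statsmodels 0.14.6), other folds, detection on both arrays and a wider name pattern.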

Additional observations from a re-analysis of the deposited data

Results flagged for a closer look

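A probe set outside the comparisons, because its annotation names several genes of which at least 1 has an integrin name, read 42.7 on the sh-BCLAF1-L array and 24.6 on the sh-Luci array. It was singled out because it was past 1.5-fold above the control array, at 1.70-fold, but both values lay below the detection threshold of 63.7. Of the other 3 probe sets with the same annotation, all were lower on the sh-BCLAF1-L array, with differences of -0.41 to -0.16 on the log2 scale. No cause was tested.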

How the results depend on the processing

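No paired analysis was possible because there was a single array for either hairpin, which also left no replicate to omit. No gene of the 3 families passed 1.5-fold under any alternative that kept that fold. Past 0.32 in size 6 were higher and 1 lower. Of the same genes, 1 was past it with the median over probe sets, where 366 of 14507 detected genes were higher and 230 lower. There were 4 with a pseudocount of 32 and 4 of 48 without _s_at and _x_at probe sets. The share of all genes past 0.32 was not computed in those settings. The share above 0 was 59.6% after median subtraction and 57.9% after the loess curve, against 68.4%. Both subtractions also shift all other genes, whose share above 0 after them was not computed. The lower shares can therefore not be set beside the 55.0% of all detected genes. The count of 57 detected genes was 34 with the median over probe sets, 37 when _s_at and _x_at probe sets were omitted, 86 with no filter and 31 at the 60th percentile. It was 52 with detection on both arrays and 61 with symbols that only start with the pattern. Past 1.5-fold among all genes there were 51 with the median over probe sets, 54 at the 60th percentile, 352 with no filter and 45 with the pseudocount of 32, against 92. There were 923 past 0.32 in size and 11 past 2-fold. The laminin median was 0.24 over 7 chains with the median over probe sets, and the collagen median 0.088 over 10 chains at the 60th percentile. Without _s_at and _x_at probe sets the medians were -0.11 for other laminin and collagen receptors and -0.12 for other matrix ligands, and without a filter -0.041 for other matrix ligands and -0.0021 for collagen processing genes. The cause was not tested. Single differences changed sign in 15 of 57 genes with the median over probe sets and in 11 of 48 without _s_at and _x_at probe sets. Subtracting the median difference of all probe sets, 0.026, changed the sign of 5, and subtracting the loess curve that of 6.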
